A study of Mus musculus with 2 samples.

Results

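The levels of the 33 adenylyl cyclase and cyclic nucleotide phosphodiesterase genes were examined in cells sorted as endothelium from the embryonic mouse kidney. The members were all genes named Adcy followed by a number, or Pde followed by a number and a letter from a to h, that had a probe set with a single annotated gene. They comprised 10 adenylyl cyclases and 23 phosphodiesterases out of 18193 measured genes. The samples were 2 pools of approximately 5 to 10 kidneys each, from E15.5 embryos (Theiler stage 23). The mice were CD-1 and carried the Tg(TIE2GFP)287Sato transgene, in which the promoter of the endothelial receptor Tie2 (Tek) drives GFP. The GFP positive cells were sorted, and each pool was hybridised to 1 array after 2 rounds of RNA amplification. Both pools belong to a single untreated group, so there was no contrast between conditions and no test, and no source says that the pools came from different litters. In addition, the sample titles carry the name FLK1 and the source label names the lining of renal vein and artery, whereas whole kidneys were dissociated according to the protocol.

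Adenylyl cyclases make the second messenger cAMP from ATP, mostly under the control of receptors coupled to G proteins. Phosphodiesterases break cAMP and cGMP down, and their families differ in which of these nucleotides they accept. In endothelium cAMP is known for tightening cell junctions, acting through protein kinase A and the exchange factor Epac, and cGMP for carrying the nitric oxide and natriuretic peptide signals.

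The 5 sequences below lie directly upstream of members for which every probe set gave a clear signal, over the background limit on both arrays, and whose brightest probe set exceeded 1000 intensity units on both. They are shown because a short CRE (TGACG) can be bound by CREB, the factor that cAMP activates, and an ETS core (GGAAGT) by the ETS factors of endothelium. Each is the 150 bases before the most upstream start site in RefSeq (GRCm38.p6), read on the strand of the gene, with matches on either strand in capitals. The other 2 members that met the rule, Adcy6 and Pde3b, are named only.
Adcy4, chr14:55784073-55784222, minus strand: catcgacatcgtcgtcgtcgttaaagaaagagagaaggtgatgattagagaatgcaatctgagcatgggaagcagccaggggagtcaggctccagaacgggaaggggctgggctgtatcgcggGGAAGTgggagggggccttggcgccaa
Adcy7, chr8:88282842-88282991, plus strand: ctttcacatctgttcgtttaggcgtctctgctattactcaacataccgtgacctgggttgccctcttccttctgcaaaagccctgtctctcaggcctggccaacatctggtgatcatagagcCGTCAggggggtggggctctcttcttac
Pde2a, chr7:101421541-101421690, plus strand: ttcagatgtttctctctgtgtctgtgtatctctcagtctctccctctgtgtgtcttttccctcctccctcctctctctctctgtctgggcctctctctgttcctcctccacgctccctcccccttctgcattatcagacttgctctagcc
Pde8a, chr7:81213115-81213264, plus strand: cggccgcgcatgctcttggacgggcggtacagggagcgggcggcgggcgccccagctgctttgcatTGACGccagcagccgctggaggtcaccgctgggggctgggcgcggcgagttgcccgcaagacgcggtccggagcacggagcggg
Pde6d, chr1:86582786-86582935, minus strand: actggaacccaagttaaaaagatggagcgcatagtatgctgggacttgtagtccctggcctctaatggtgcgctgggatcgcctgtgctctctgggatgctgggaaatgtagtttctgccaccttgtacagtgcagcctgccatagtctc

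Adcy4 held 1 ETS core, beginning 27 bases before its start site. Adcy7 held 1 short CRE at 28 bases and Pde8a 1 at 84 bases. The windows of Pde2a and Pde6d held neither motif. Windows of 250 bases upstream were available for 24 of the 33 members, with 48 windows in all because some genes have several start sites, and some of these windows overlap. A short CRE was found in 7 of the 48 windows (14.6%), against 17.8% of all 32851 windows. An ETS core was found in 11 (22.9%), against 19.7% of all windows. The full palindromic CRE (TGACGTCA), which contains the short form, was in 0 of 48, against 1.55% of all. Of the 17 members with a window whose signal was above background, 5 had a short CRE and 4 an ETS core. Of the 7 others, 2 and 4 did. These counts are by gene, and a gene with several windows has more chances of a match. They cannot be set against the shares of windows, and the share of all genes with a match was not computed. These matches are letters in a window and were not tested for binding.

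Intensities are in arbitrary units and are given for replicate 1 and then replicate 2. A probe set is the group of short probes that reports 1 transcript. The brightest probe set, by mean log2 intensity, stood for the gene, which was called above background if it exceeded the limit set by sensory receptor genes on both arrays, 202.5 for replicate 1 and 204.1 for replicate 2. Since probe sets bind their targets with different strength, the level of a gene was not set against that of another.

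Markers of endothelium and of the other cell types a sort could hold were measured first. All 10 endothelial markers were above background, with a summed intensity of 142385 and 131849, among them Tek, Kdr, Cdh5 and Pecam1. All 10 markers of renal stroma were above background and higher in replicate 2, with a median log2 difference of -1.87 and sums of 27423 and 91244. Of these, Foxd1 gave 775.4 and 1775, Pdgfra 719.8 and 4811, Dcn 992.6 and 3690 and Tbx18 281.9 and 1115. The 4 mural markers above background (Pdgfrb, Rgs5, Cspg4 and Acta2), of 7, were also higher in replicate 2, with sums over the list of 6640 and 11360. Of 8 macrophage markers 7 were above background, the exception being Itgam, with sums of 74303 and 88817. Among them Csf1r gave 34030 and 36806, Adgre1 4305 and 7632, Cd68 2358 and 2218 and Lyz2 8262 and 8857. Of 8 nephron and ureteric bud markers 3 were above background, with sums of 1675 and 1873, and Six2 passed at 269.5 and 229.5 whereas Cited1, Lhx1 and Pax8 were below the limit on both arrays. Of 3 podocyte markers 1 was, with sums of 1245 and 2793, Synpo passing, Wt1 passing in replicate 2 alone and Nphs1 being below the limit. The pools therefore differed in the level of stromal transcripts, and more cells of a type cannot be told apart from more RNA per cell. The values of the members are those of the sorted cells as a whole, not of endothelial cells alone.

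Of the 33 members 21 (63.6%) were above background on both arrays, against 61.0% of all genes, so the share was close to that of the whole array. A gene with more probe sets has more chances to pass, and the members had 80 for 33 genes, against 34945 for 18193. Counted by probe set the members passed less often, 50.0% against 55.0%. Of the cyclases 8 of 10 were above background, and of the phosphodiesterases 13 of 23. The groups of members described below are small, and their counts are to be read against the same 61.0%.

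**Figure D1:**
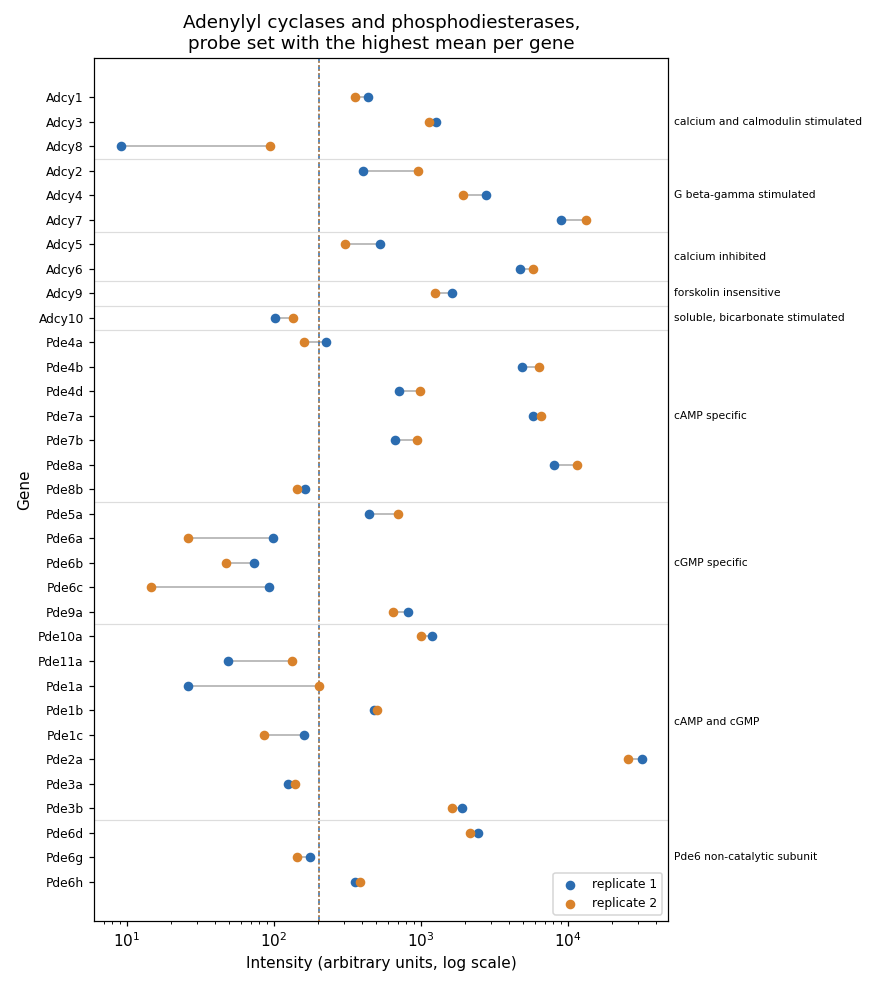
Intensity (x axis, arbitrary units, log scale) of each of the 33 genes in replicate 1 (blue) and replicate 2 (orange), ordered by regulation or substrate, with the background limits of 202.5 (dashed) and 204.1 (dotted). Both points lie right of the limits for 21 genes, and those of Pde4a, at 225.8 and 160.0, lie on either side of them.

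The cyclases that G protein beta-gamma subunits stimulate were all above background, 3 of 3. Adcy7 gave 9055 and 13439, and its other probe sets gave 2693 and 4444, and 302.5 and 700.0. All 3 were higher in replicate 2. This cyclase is known to be abundant in blood cells as well as in other tissues. Adcy4 gave 2779 and 1940 and was the higher in replicate 1. Adcy2, best known from brain and muscle, gave 406.9 and 957.1. Adcy2 and Adcy4 each rest on 1 probe set.

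Of the cyclases that calcium inhibits, Adcy6, a widely expressed form, gave 4758 and 5857 from a single probe set. Adcy5, the main form of striatum and a major form of heart, gave 532.5 and 307.5, but only through 1 of its 4 probe sets. That set has the suffix x_at, which marks probes that can also bind other transcripts, and the other 3 were below the limit on both arrays, between 6.5 and 104.0. The call for Adcy5 therefore rests on the probe set with the least specific design.

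Of the cyclases that calcium and calmodulin stimulate, Adcy3, which serves olfactory neurons and primary cilia, gave 1279 and 1147. A second probe set of Adcy3 was above background on both arrays at 622.6 and 770.0, the third in replicate 2 only (119.3 and 209.9), and the fourth was below the limit at 14.6 and 27.2. Adcy1, known mainly from neurons, gave 438.2 and 356.8, with its second probe set above the limit in replicate 2 only (169.3 and 204.9). Adcy8, another calcium stimulated form, was below the limit on both arrays at 9.1 and 93.8. Adcy9, a form that responds weakly or not at all to the drug forskolin, gave 1636 and 1247. Of its 4 probe sets 3 were above background, and all 3 were higher in replicate 1. Adcy10, the soluble cyclase that bicarbonate activates and that is best known from sperm, was below the limit at 103.0 and 135.8.

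The cAMP specific phosphodiesterases were above background for 5 of 7 genes. Pde8a gave 8114 and 11508, and its second probe set 1877 and 1696. Pde7a gave 5829 and 6594, and 6 of its 7 probe sets were above background on both arrays. The seventh passed in replicate 2 only, at 178.2 and 304.2. No other member had as many probe sets above background.

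Pde7b, best known from brain, gave 667.4 and 939.8. Its other probe sets gave 358.1 and 551.1, and 280.8 and 322.6. All 3 were above background and higher in replicate 2.

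The Pde4 genes encode the targets of rolipram, and Pde4b is known as the main form of leukocytes. Pde4b gave 4880 and 6430, with 3 of 6 probe sets above background on both arrays. The other 2 of these gave 1009 and 734.1, and 873.4 and 1090. Of the remaining 3, 1 passed the limit in replicate 1 only (210.0 and 49.4) and 2 were between 2.5 and 18.8. Pde4d gave 708.0 and 988.5 with 1 of 2 probe sets, the other being at 42.7 and 49.0. Pde4a, at 225.8 and 160.0, passed in replicate 1 alone and was the only member on different sides of the limit in the 2 pools. Pde8b was below the limit at 163.0 and 143.3.

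Phosphodiesterases that accept both nucleotides were above background for 4 of 8 genes. Pde2a, which cGMP stimulates and which is known from endothelium, gave 32195 and 25886. Its other probe sets gave 4962 and 3876, and 1383 and 1425, so that every probe set of Pde2a was above background. Pde3b, which cGMP inhibits and which is best known from fat and liver, gave 1922 and 1639. Pde10a, best known from striatum, gave 1195 and 1004 with 2 of 5 probe sets above background, the second at 375.0 and 464.5. The calmodulin dependent Pde1b gave 482.9 and 505.8.

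The other genes of this group were below the limit. Pde3a, a form of heart, platelets and vascular smooth muscle, gave 124.5 and 139.3 in its brightest probe set. All 6 probe sets of Pde1c, which is known from proliferating smooth muscle, were below the limit, with 160.2 and 86.3 in the brightest. Pde11a gave 49.1 and 134.2. Pde1a gave 26.0 and 203.2, the second value lying just under the limit of 204.1. A value below the limit is not evidence that a transcript was absent, since the probes of a gene may bind poorly.

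Of the cGMP specific enzymes, Pde5a, the target of sildenafil, gave 449.0 and 705.3 from an x_at probe set. A probe set without that suffix gave 242.0 and 654.0, and the third was below the limit at 84.5 and 89.2. Pde9a gave 825.0 and 647.9. The catalytic subunits of the photoreceptor enzyme were below the limit on both arrays, with Pde6a at 99.3 and 26.3, Pde6b at 73.5 and 47.4 and Pde6c at 92.4 and 14.6. Among the non-catalytic Pde6 genes, Pde6d, which carries prenylated proteins in many tissues, gave 2460 and 2178. Pde6g, the inhibitory subunit of rods, was below the limit at 176.5 and 144.6. Pde6h, the inhibitory subunit of cones, gave 357.1 and 384.3, whereas its second probe set gave 165.1 and 115.9.

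Of the 80 probe sets of the members, 40 (50.0%) were above background on both arrays, against 55.0% of all probe sets with a single gene. Of 20 members with several probe sets, 10 had some above background and some not, that is 50.0%, against 44.3% of 9010 such genes on the array. Every probe set was above background for 11 of the 21 members called, 7 of which have a single probe set. The call rested on 1 of several probe sets for Adcy1, Adcy5, Pde4d and Pde6h. The same counts over all genes were not made. With the median of the probe sets in place of the brightest, 17 members were above background, and those lost were Adcy5, Pde4b, Pde4d and Pde10a. With the dimmest probe set 11 remained. The share of all genes that passed was not computed under these choices of probe set, so the fall cannot be called particular to the members.

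**Figure D2:**
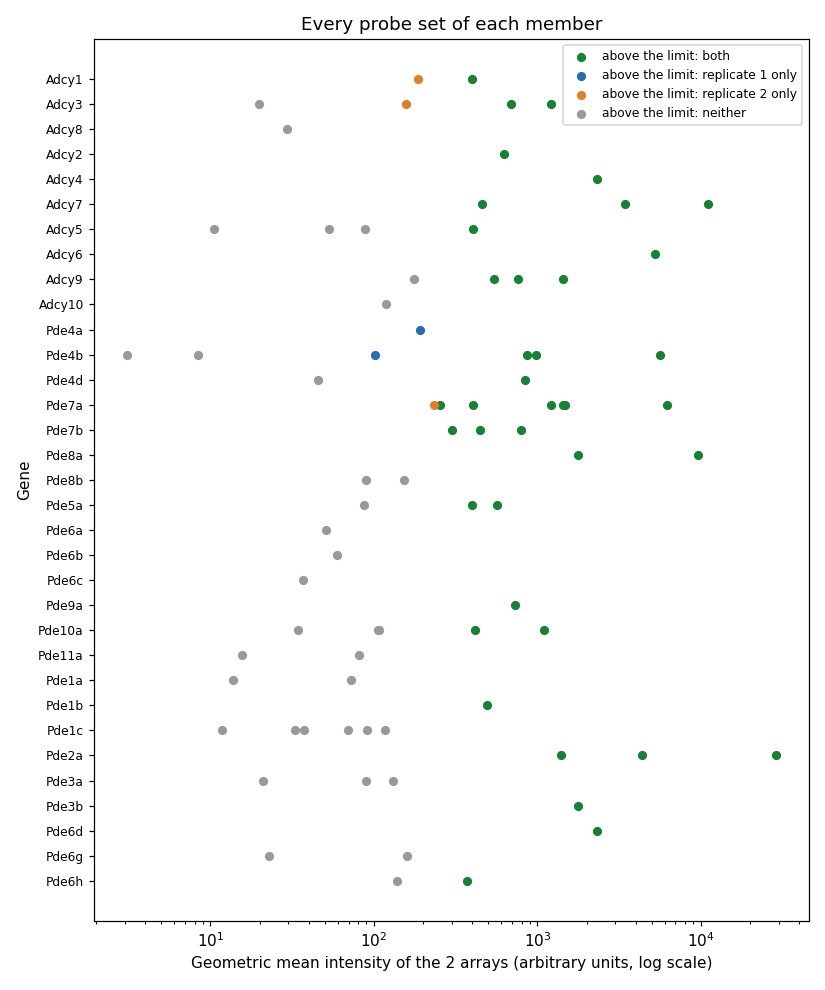
Geometric mean intensity of both arrays (x axis, arbitrary units, log scale) for each of the 80 probe sets, by gene, coloured by whether the probe set was above the limit on both arrays, on 1 or on neither. Pde4b, Pde10a and Adcy5 have both green points (above on both arrays) and grey points (above on neither), whereas all points of Adcy7, Pde2a, Pde7b and Pde8a are green.

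The difference between the pools was then compared, as log2 of replicate 1 minus replicate 2 after the medians of both arrays had been made equal. With 2 arrays this difference is itself the only measure of replicate spread and has no error of its own. The median over the 21 members above background was -0.03, against 0.04 over all 11102 genes above background, for which the SD was 0.51. Of the 21 members 10 were higher in replicate 1 and 11 in replicate 2 (11 and 10 after quantile normalization, where Pde1b changed side). Of all 11102 genes above background 6013 were higher in replicate 1 and 5089 in replicate 2.

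Among the 21 members above background, Adcy2 was the only one that differed by over 2-fold between the pools. It was 2.30-fold higher in replicate 2 (log2 difference -1.20), so 1 of 21 members was past 2-fold in this direction, against 2.57% of all genes above background. In the other direction the count was 0 of 21, against 2.26%. The next members in size were Adcy5, 1.77-fold higher in replicate 1, and Pde5a, 1.53-fold higher in replicate 2. Of the 40 member probe sets above background 3 differed by over 2-fold, against 957 of 19204 for all probe sets with a single gene. Besides that of Adcy2, these were 1 of Adcy7, 2.26-fold, and 1 of Pde5a, 2.64-fold higher in replicate 2. The stromal markers were higher in the same pool, and the part of stromal, mural or blood cells in the values of Adcy2, Adcy7, Pde5a or any other member was not tested.

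The 5 cAMP specific phosphodiesterases above background were all slightly higher in replicate 2, with log2 differences from -0.14 for Pde7a to -0.47 for Pde8a. Each difference was smaller than the SD over all genes, and 5089 of all 11102 genes above background were also higher in replicate 2. Moreover the direction was not shared by every probe set, since 1 of the 3 probe sets of Pde4b above background, 2 of the 6 of Pde7a and 1 of the 2 of Pde8a were higher in replicate 1. Among the 10 members with several probe sets above background, the sets pointed the same way in 4, Adcy7, Adcy9, Pde5a and Pde7b. For all such genes on the array the share was 47.9%.

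**Figure D3:**
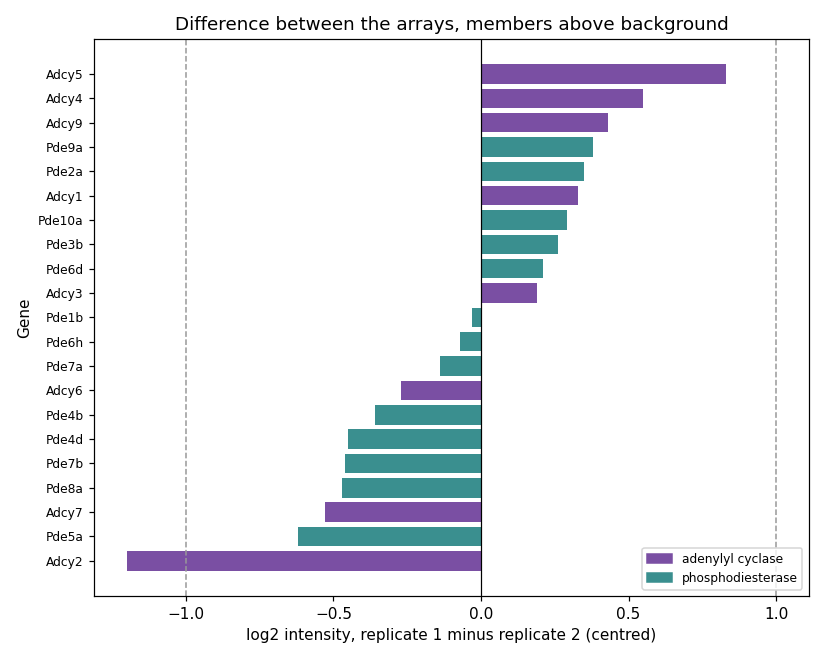
Log2 intensity of replicate 1 minus replicate 2 (x axis, medians made equal) for the 21 genes above background, cyclases in purple and phosphodiesterases in teal, with 2-fold marked by dashed lines. The bar of Adcy2, at -1.20, is the single bar past a dashed line.

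The rest of the cyclic nucleotide pathway was described with 8 further gene lists, 81 measured genes in all. Of these 51 (63.0%) were above background, close to the 61.0% of all genes. Among the 51, 5 differed by over 2-fold between the pools, against 536 of all 11102 genes above background. Each value is that of the brightest probe set, and the other probe sets of these genes were not compared between the pools. Of 11 G protein genes 9 were above background. Gnas, whose product activates the cyclases, gave 45771 and 47796. The inhibitory Gnai1 and Gnai2 gave 7300 and 6699, and 30607 and 25831, and Gnal, the olfactory relative of Gnas, gave 337.8 and 306.6. Gnaz passed in replicate 2 only (106.5 and 206.9) and Gnao1 was below the limit (103.3 and 58.4).

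Receptors that raise cAMP were above background for 5 of the 17 genes measured. The list held 22 genes, so the count does not cover all of these receptors. The prostaglandin E2 receptors Ptger4 and Ptger2 gave 670.2 and 2337, and 263.3 and 477.1. Calcrl, the receptor of adrenomedullin, gave 281.6 and 921.6. Ptger4 (3.40-fold) and Calcrl (3.20-fold) were higher in replicate 2. The prostacyclin receptor Ptgir was below the limit at 149.0 and 129.2. The remaining genes above background, Ramp2, the partner of Calcrl, at 18207 and 14230, and Pth1r at 339.4 and 404.8, are named after their values were seen. Adcyap1r1, the PACAP receptor, passed in replicate 1 alone (325.1 and 45.9).

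Guanylyl cyclases, which make cGMP, and natriuretic peptide receptors were above background for 5 of 8 genes. The nitric oxide sensor subunits Gucy1a1 and Gucy1b1 gave 369.4 and 611.3, and 333.6 and 1176, and Gucy1b1 was 3.44-fold higher in replicate 2. Gucy1a2 passed in replicate 1 only (203.1 and 200.3). Npr1, the receptor of atrial natriuretic peptide, gave 206.2 and 284.1 and passed the limit narrowly in replicate 1. The clearance receptor Npr3 gave 397.6 and 1072 (2.63-fold higher in replicate 2). Gucy2c (68.3 and 84.7) and Gucy2e (8.4 and 10.9) were below the limit.

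Of the genes for protein kinase A, its inhibitors and Epac, 9 of 10 were above background. The catalytic subunits Prkaca and Prkacb gave 8906 and 8221, and 1333 and 2237. The regulatory subunits Prkar1a and Prkar2a gave 24522 and 22807, and 5790 and 6202. Prkar1b, at 641.8 and 205.7, was 3.20-fold higher in replicate 1 and passed the limit narrowly in replicate 2. The inhibitor gene Pkib passed in replicate 2 only (97.5 and 526.2).

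Of the list of cGMP dependent kinases, their substrates and cyclic nucleotide gated channels, 3 of 11 were above background. These were Prkg1 (1002 and 921.5), its substrate Vasp (8320 and 9374) and Mrvi1 (1191 and 1178), whereas Prkg2 (182.8 and 168.2) and the channel genes Cnga1 (17.1 and 12.9) and Cnga2 (45.5 and 94.5) were below the limit. Cngb3 (30.5 and 85.6) and Hcn2 (114.3 and 44.9) differed by over 2-fold but were also below it. All 7 CREB family and coactivator genes were above background, among them Creb1 at 4563 and 6174, Crem at 1897 and 2456, Crebbp at 10530 and 12103 and Ep300 at 1685 and 1756. Of 15 genes for AKAP anchoring proteins, which hold protein kinase A in place, 11 were above background. Akap1 gave 1588 and 1694, Akap2 gave 8795 and 8893, Akap5 gave 335.9 and 444.3 and Akap8 gave 11980 and 12738, whereas Akap3 (23.5 and 76.9) and Akap4 (102.9 and 79.9) were below the limit and Akap6 passed in replicate 2 alone (161.9 and 236.8). The exporters of cyclic nucleotides Abcc4 (6013 and 5626) and Abcc5 (1849 and 1615) were both above background.

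**Figure D4:**
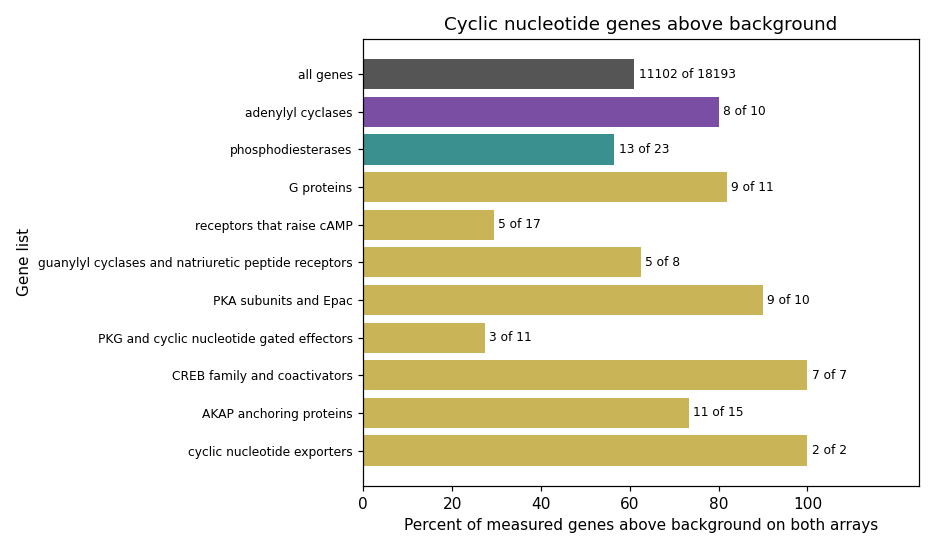
Share of measured genes, in percent, that passed the limit on both arrays (x axis) for all 18193 genes (grey), the cyclases (purple), the phosphodiesterases (teal) and 8 lists of the cyclic nucleotide pathway (yellow), with counts at the bars. The list of receptors that raise cAMP stands at 5 of 17 and that of protein kinase A and Epac at 9 of 10.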

How the data were processed

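The authors deposited 1 linear intensity per probe set for 45101 probe sets of an Affymetrix 3' expression array. The submitters' processing notes name GCOS. The genome build and detection calls are not given in the sources used here. The mean without the extreme 2% of values at each end was 1500.0 on each array, so the arrays had been scaled before deposit. The study's methods describe another array and amplification.

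Genes were named through the platform annotation from the 34945 probe sets with a single gene, and all 33 members were found in RefSeq (GRCm38.p6). The background limit was the 95th percentile, per array, of 83 probe sets for 75 chemosensory receptor genes (olfactory, vomeronasal, taste). Differences were centred on the medians of probe sets above background, which removed an offset of -0.03. Arrays have no read depth, and their number limits the precision. The steps were tested on simulated data (Python 3.11.15, pandas 2.3.3, numpy 2.4.6). Alternatives covered the limit, the probe set, the scaling and the call on each array alone.

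The members and lists were chosen with earlier results of these data known. All members were named, with the first 4 measured genes per list. For pathway lists, up to 3 genes whose call differed from the majority and up to 3 that differed over 2-fold were added.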

Additional observations from a re-analysis of the deposited data

How the results depend on the processing

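The choice of probe set had the largest effect among the alternatives tried. With the dimmest probe set of each gene, 11 members were above background in place of 21, made up of 4 cyclases and 7 phosphodiesterases, and 27 pathway genes in place of 51. Of the members above background, 2 in place of 1 were past 2-fold under each other choice of probe set. These were Adcy2 and Adcy7 with the dimmest probe set. With the median of the probe sets and with probe sets without a suffix they were Adcy2 and Pde5a. Under other limits, from a fixed 100 to 2 times the limit used, 18 to 26 members were above background. The share of all genes was not computed under these limits or choices of probe set. The fixed limit added Adcy10, Pde3a, Pde4a, Pde6g and Pde8b, and 2 times the limit left out Adcy1, Adcy5 and Pde6h. On replicate 1 alone 22 members passed and on replicate 2 alone 21. The probe set was still chosen from both arrays, so neither count could fall below 21. The median difference of the members lay between -0.09 and 0.08 under all alternatives. The difference of a single member depended on its probe set. For the 14 members above background with several probe sets, the 3 other choices of probe set gave 42 values, of which 18 moved by at least 0.51, the SD over genes, and 12, in 8 members, changed sign. Several sign changes came from values not above background. These were Adcy1, Adcy3, Adcy9 and Pde6h with the dimmest probe set, and Adcy5 and Pde6h without a suffix. Adcy5 and Pde4b were also such cases with the median, where Pde4b went from -0.36 to 1.20. The sign changes of Pde2a and Pde8a with the dimmest probe set, and of Adcy3 and Pde6h with the median, were above background. No paired analysis was possible because both arrays belong to 1 group. Genes near the limit, such as Pde4a, could not be placed firmly with 2 arrays. Pde1a was near the limit in replicate 2 only (26.0 and 203.2), and no alternative added it.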
